A study of Mus with 438 samples.

Results

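The genes described here are the voltage-gated and related ion channel genes of single mouse photoreceptors. They were chosen by symbol alone: every row whose symbol begins with Kcn, Scn and a digit, Cacn, Clcn, Hcn, Trpc, Trpm or Trpv and a digit, or Ano and a digit. The rule found 42 of the 10390 genes in the expression table and used no measured value. The cyclic nucleotide-gated channels of the outer segment are not among them. By class they were 8 symbols of the voltage-gated potassium (Kv) pore families, 3 Kv auxiliary subunits, 2 inward rectifiers, 1 two-pore-domain potassium channel, 2 calcium-activated potassium channels and 1 sodium channel. A further 3 were calcium channel pores, 3 alpha2delta subunits, 1 beta subunit, 1 gamma-family subunit, 5 Clcn, 2 Hcn, 5 Trp and 5 Ano genes. By its name, Kcnq1ot1 is a long noncoding RNA antisense to Kcnq1, and Trpc4ap encodes a protein associated with a channel. These 2 matched the symbol rule without belonging to a channel family. Members of the families need not be channels either, since Clcn3 and Clcn4 encode chloride-proton exchangers.

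A photoreceptor is depolarized in darkness and hyperpolarizes in light, and the channels of its inner segment shape that voltage before it reaches the synapse. Potassium currents through delayed rectifier, inward rectifier and ether-a-go-go-related channels set the dark potential, Hcn channels return the membrane toward it, and an L-type calcium channel at the ribbon synapse drives tonic glutamate release. Auxiliary subunits of the Kcne, Kcnab, Cacnb and Cacna2d families alter the gating or the surface delivery of the pores they join.

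The study asked how thyroid hormone receptor beta, encoded by Thrb, and position in the retina shape cone photoreceptors. Single cells were picked by their fluorescence after pieces of superior or inferior retina had been treated with papain, and 430 single-cell RNA libraries were made with the SMART-Seq v4 kit. Regions bound by the receptor were taken from the retina of E18 embryos (ThrbHAB:BirA against BirA, streptavidin affinity purification). Regions of open chromatin came from cone nuclei at P30 (Trb2Cre-het:Sun1-gfp against Trb2Cre-KO:Sun1-gfp).

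Control cones were Trb2Cre-het:Ai6 on strain C57BL/6, in 5 collections at P2, P8, P21, P60 and 2 months (2m), each from superior and inferior retina. All control cones therefore carry 1 Trb2Cre allele and the fluorescent Cre reporter Ai6, and none is wild type at that locus by its label. Knockout cones were Trb2Cre-KO:Ai6 at 2m from both zones. Rods were from 2m mice of tgNrl:gfp, a line in which the rod gene Nrl's promoter drives a fluorescent protein, and their label gives no zone. The groups held 26 superior and 30 inferior cones at P2, 24 and 24 at P8, 24 and 24 at P21, 26 and 21 at P60 and 53 and 50 at 2m. There were 50 superior and 48 inferior knockout cones and 29 rods. The labels name no animal, so cells of a group are not replicates of its condition, each group counts as 1 sample, and no test was made over cells.

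Values are in CPM, the reads of a gene scaled to a common library size, and they are not divided by gene length, so levels are compared between groups for 1 gene and never between genes. Libraries held from 897893 to 32636811 reads, with group medians from 1744578 reads in P21 superior cones to 18313296 in rods. The summed mean of 11 cone markers was from 11588 to 110483 CPM in control cones, 99164 (superior) and 99393 CPM (inferior) in the knockout and 167 CPM in rods, where 7 of the 11 were under 1 CPM. The summed mean of 10 rod markers was 138580 CPM in rods and from 699 to 20615 CPM in control cones. In 2m controls Thrb itself ran from 0 to 1339.9 CPM with a median of 81.5 in superior cones and from 0 to 1178 CPM with a median of 59.97 in inferior cones. In the knockout its medians were 0.125 and 0.0716 CPM, with highest cells at 454 and 452 CPM, and gene-level values do not separate the receptor's isoforms.

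Most channel genes were found in few cells of any group, and a small set was found in nearly all cones. A cell was counted as holding a transcript at 10 CPM or more. In all 10 control groups, at least 50% of cells held each of 3 genes, among them Clcn3, an endosomal chloride-proton exchanger, and Kcnh6, an ether-a-go-go-related potassium channel. A further 14 genes reached that share in some control groups, and 25 in none, of which 17 stayed under 25% of cells in every control group. The number of channel genes with a group mean of at least 10 CPM was from 23 to 31 in the control groups and 16 in rods.

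The potassium channel genes differed in how broadly they were found in control cones. Kcnma1, the large-conductance calcium-activated channel, had control means from 114 to 391 CPM. Kcnk1, a two-pore-domain leak channel, had means from 0 to 27.6 CPM, and it was held by at most 16.7% of cells of any control group. Kcnj3, a G protein-gated inward rectifier, was sparse as well. It had means of 43.7 and 46.5 CPM in superior and inferior cones at P2, at most 0.11 CPM in the 6 groups from P8 to P60, and 15.8 and 4.44 CPM at 2m. Breadth differed within a class as well: among control groups Kcnh6 was held by at least 66% of cells and Kcnma1 by at least 38%, while Kcnh2 and Kcnn1 were each held by at most 16.7%.

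Among the calcium channel genes, Cacna1f, the pore of the L-type channel at photoreceptor ribbons, had control means from 126 to 243 CPM. Cacna2d4, the alpha2delta subunit of the same synaptic channel, had 31.3 and 84.00 CPM in superior and inferior cones at P2, and its largest control mean was 243 CPM. Cacnb2, the beta subunit that partners that channel in photoreceptors, had means from 0.0313 to 303 CPM. The gamma-family gene Cacng4, best known as an AMPA receptor auxiliary subunit, reached at most 15.7 CPM. The 3 subunits of the synaptic channel were thus all measured in cones after P2, and Cacng4 stayed sparse.

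Among the sodium, Clcn, Trp and Ano genes, Scn8a was sparse and Clcn3, Trpc4ap and Ano2 were measured in every control group. Scn8a, the only sodium channel gene in the table, had control means from 6.04 to 87.9 CPM and was held by at most 30.8% of cells of a control group. Control means of Clcn3 were from 273 to 625 CPM, and those of Ano2, a calcium-activated chloride channel of photoreceptor terminals, from 105 to 281 CPM. Trpc4ap, not itself a channel, had means from 128 to 285 CPM. These ranges span all ages, and the means of Clcn3, Ano2 and Trpc4ap were never near 0 in a control group. Some medians over cells were: that of Trpc4ap was 0 in P21 inferior cones and that of Ano2 0.259 CPM in P21 superior cones.

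The first comparison followed the channel genes across age in control cones. Kcne2 and Cacnb2, both auxiliary subunits, rose with age, and Kcnd3, a pore of the transient A-type potassium current, fell. The slope per doubling of age was fitted by limma on the 5 collections, with zones averaged and 2m taken as 60 days, over the 10136 genes whose mean reached 5 CPM, of which 37 were channel genes. The others, among them Ano6, Cacna2d2, Cacng4 and Clcn2, lay under that minimum and were not tested. Among the 37, 2 rose and 1 fell at an adjusted p under 0.05, against 1.37% and 1.12% of all tested genes (all genes with TMM scaling, 217 rose and 53 fell, against 139 and 114 by CPM). The median slope of the 37 was -0.069 beside -0.088 over all tested genes.

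Kcne2 encodes a small single-pass subunit that joins several Kv pores and Hcn channels, and its gene lies at chr16:92292389-92298133 (GRCm38). At P2, superior cones ran from 0 to 198 CPM with a median of 0, and inferior cones ran from 0 to 434 CPM with a median of 0.158. At P8, superior cones ran from 1.71 to 3777 CPM with a median of 853, and inferior cones ran from 0.916 to 3354 CPM with a median of 1017. So 1 of 26 superior and 10 of 30 inferior cones held the transcript at P2, against 23 of 24 and 23 of 24 at P8. At P21, superior cones ran from 1.11 to 3107 CPM with a median of 1132, and inferior cones ran from 706 to 4727 CPM with a median of 2097. At P60, superior cones ran from 0 to 3296 CPM with a median of 423, and inferior cones ran from 31.99 to 3339 CPM with a median of 1701. At 2m, superior cones ran from 0.37 to 2644 CPM with a median of 496, and inferior cones ran from 0.796 to 4022 CPM with a median of 1360.2. Every group from P8 on was high, and the cells of all these groups overlapped. The slope was 0.92 log2 units per doubling of age (SE 0.22, limma adjusted p = 0.0497). Without the P2 collection the slope was -0.0796, so the call rests on the low values at P2.

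Cacnb2, at chr2:14603861-14988811, was close to absent at P2, with a highest superior cell of 0.582 CPM, a highest inferior cell of 0.492 CPM and no cell at 10 CPM. At P8, superior cones ran from 0 to 286 CPM with a median of 0, and inferior cones ran from 0 to 329 CPM with a median of 0.439. At P21, superior cones ran from 0 to 814 CPM with a median of 0.949, and inferior cones ran from 0 to 2046 CPM with a median of 157. Cells with much Cacnb2 and cells with none thus stood side by side in the same group after P2. At P60, superior cones ran from 0.447 to 1185 CPM with a median of 73.96, and inferior cones ran from 0 to 576 CPM with a median of 22.1. At 2m, superior cones ran from 0 to 601 CPM with a median of 49.5, and inferior cones ran from 0 to 2192 CPM with a median of 0.547. The number of cells at 10 CPM was 8 of 24 and 9 of 24 at P8 and 31 of 53 and 14 of 50 at 2m, superior then inferior, and the largest share of any control group was 61.5%. The slope was 1.34 log2 units per doubling (SE 0.25, limma adjusted p = 0.0157), and 0.34 without P2. The pore gene Cacna1f was not called: its limma slope was 0.03 (SE 0.086, adjusted p = 0.88), with means of 126 and 169 CPM already at P2. The difference between the slopes of the pore and its beta subunit was not tested.

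Kcnd3, at chr3:105451890-105674002, was held by a larger share of cells at P2 than in any later control group. At P2, superior cones ran from 0 to 552 CPM with a median of 0, with 7 of 26 cells at 10 CPM, and inferior cones ran from 0 to 516 CPM with a median of 0, with 8 of 30 cells. At P8, 1 of 24 superior and 1 of 24 inferior cells held it. At P21 the count was 3 of 24 in superior cones, where the highest cell was 389 CPM, and 0 of 24 in inferior cones. At P60 and 2m no control cone held it: the highest cells of P60 were 0.375 and 0 CPM and those of 2m 0.108 and 4.47 CPM, superior then inferior. The 0 of 53 superior and 0 of 50 inferior cones at 2m allow shares of up to 5.66% and 6%, by counting error only. The slope was -1.12 log2 units per doubling (SE 0.26, limma adjusted p = 0.0444).

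These 3 calls depend on how the 5 collections are treated. Over 16 alternatives each, the adjusted p ran from 0.00368 to 0.779 for Cacnb2, from 0.0041 to 0.935 for Kcne2 and from 0.00585 to 0.603 for Kcnd3, and over all genes the counts varied as well. With reads summed per group, edgeR called 0 of the 37, beside 0% of all genes rising and 0.0493% falling, and DESeq2 called 3 rising (Kcnab2, Kcne2 and Kcnj14, without Cacnb2) and 2 falling (Ano8 and Kcnd3), beside 5.19% and 2.47%. With averaged logs of single cells, 4 rose and 4 fell, beside 2.1% and 7.77%. With TMM scaling 0 of the 37 fell. Leaving out the P2 or the 2m collection left 0 rising and leaving out P60 left 1, leaving out P2, P8, P60 or 2m left 0 falling, and age cannot be told apart from collection, because each age before the adult is 1 collection.

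**Figure D1:**
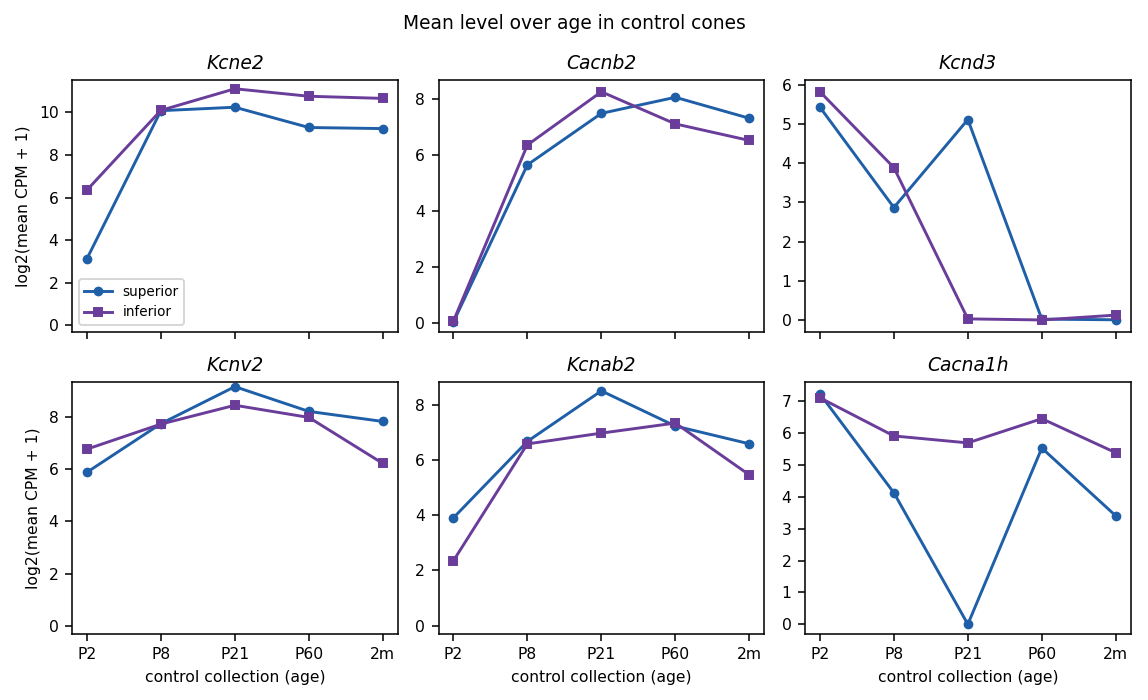
Mean level of 6 channel genes in control cones, as log2(mean CPM + 1), against the 5 collections in order of age (spaced evenly, not to scale in days), with superior cones as blue circles and inferior cones as purple squares. Kcne2, Cacnb2 and Kcnab2 are lowest at P2, Kcnd3 is near 0 at P60 and 2m, and Cacna1h is at 0 in superior cones at P21 alone.

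Kcnab2, which encodes a cytoplasmic beta subunit of Kv channels, was also lowest at P2 but did not pass the test by limma. Its superior and inferior means were 13.96 and 4.09 CPM at P2, 101 and 94.7 at P8, 362 and 125 at P21 and 149 and 161 at P60, with lower means at 2m than at P60 in both zones (slope 0.64, SE 0.20, limma adjusted p = 0.11). At P2 it was at 10 CPM in 1 of 26 superior and 1 of 30 inferior cells, and without the highest cell the means were 0.0416 and 0.308 CPM. Over 16 alternatives its adjusted p ran from 0.0139 to 0.968, and it was called as rising with averaged logs of single cells and with DESeq2. Kcnv2, named here after its values were seen, encodes a silent Kv subunit of photoreceptors, and its means were 57.98 and 108 CPM at P2, 571 and 348 CPM at P21 and 226 and 73.6 CPM at 2m (slope 0.23, SE 0.14, limma adjusted p = 0.397). In the other direction Ano8, an anoctamin of membrane contact sites, had means of 109 and 115 CPM at P2 and 15.7 and 2.03 CPM at 2m (slope -0.60, SE 0.19, limma adjusted p = 0.12). Its adjusted p ran from 0.0102 to 0.919 over the alternatives, and averaged logs of single cells and DESeq2 called it as falling. In all, 12 of the 37 had an unadjusted limma p under 0.05, against 18.3% of all tested genes.

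The second comparison set superior against inferior control cones. The superior retina of the mouse is rich in cones with the medium-wavelength opsin, and inferior cones carry mostly the short-wavelength opsin. No channel gene passed the test. Kcne2 had higher means in inferior cones in 5 of 5 collections. In the limma fit with collection as a block, 0 of the 37 were called in either direction, against 0% of the 10136 genes, and 6 of the 37 had an unadjusted p under 0.05, against 7% of all. edgeR on summed reads called 0 of the 37, and DESeq2 called 2, Kcnj14 and Ano1, both higher in inferior cones, beside 1.09% of all genes in that direction and 1.26% in the other. The median difference, superior minus inferior, was -0.011 over the 37 and 0.10 over all tested genes.

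For Kcne2 the difference of log2(mean CPM + 1), superior minus inferior, was -3.23 at P2, -0.016 at P8, -0.87 at P21, -1.47 at P60 and -1.42 at 2m. The gap was thus close to absent at P8 and between those of P21 and P60 at 2m, and at P2 it was a gap between low values. The fitted difference was -1.40 (SE 0.37, limma adjusted p = 0.628), and an exact two-sided sign-flip test over the 5 collections gave p = 0.0625, the smallest it allows. Any 5 differences of the same sign give that value, so the test adds nothing to their shared sign. The logs of single cells averaged in place of the log of the mean gave an adjusted p of 0.0108, with 0.0592% of all genes called in that direction. At 2m, Opn1sw, the short-wavelength opsin, moved the same way, with 12658 CPM in superior cones and 54032 CPM in inferior cones, and its part in the Kcne2 difference was not tested. At P8 Opn1sw was 9231 and 28448 CPM, while the Kcne2 means were 1079.6 and 1091 CPM.

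Higher means in inferior cones in all 5 collections were found for 4 of the 37, Ano1, Clcn4, Kcne2 and Kcnj14, against 2.4% of all genes, and higher means in superior cones in all 5 for 0, against 4.96%. Ano1, a calcium-activated chloride channel, rested on few cells: its inferior mean of 55.7 CPM at P21 came 99.96% from 1 cell. Clcn4, a chloride-proton exchanger named here after its values were seen, had means of 165 superior and 224 inferior CPM at 2m and a fitted difference of -0.15 (SE 0.13, limma adjusted p = 0.835). The fitted differences of Ano1 and Kcnj14 were -2.62 (SE 0.87) and -2.91 (SE 0.85), with limma adjusted p of 0.702 and 0.656.

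Cacna1h, the pore of a T-type calcium channel, at chr17:25374285-25436334, was higher in inferior cones at 4 of 5 collections. Its superior and inferior means were 149.8 and 138 CPM at P2, 16.5 and 59.4 at P8, 0 and 50.9 at P21, 45.4 and 86.9 at P60 and 9.59 and 40.9 at 2m. The fitted difference was -2.05 (SE 0.73, limma adjusted p = 0.702). In the opposite direction, Kcnab2 and Ano8 had fitted differences of 0.84 (SE 0.31) and 1.45 (SE 0.50), with limma adjusted p of 0.702 and 0.702.

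**Figure D2:**
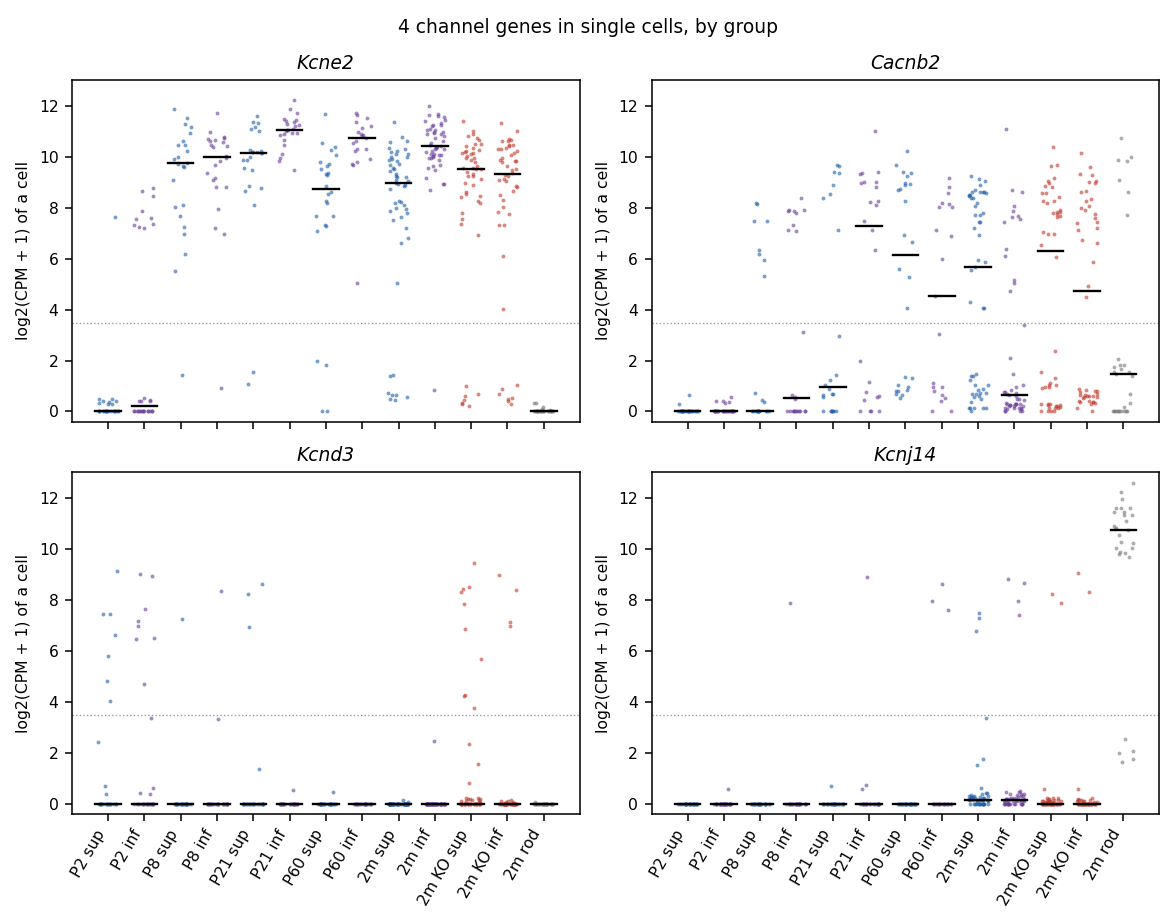
Level of Kcne2, Cacnb2, Kcnd3 and Kcnj14 in each cell, as log2(CPM + 1), in the 13 groups, with superior control cones in blue, inferior in purple, knockout cones in red and rods in grey. Black bars mark the median over cells and the dotted line 10 CPM; Kcne2 medians lie at 423 CPM or more in every cone group from P8 on and at 0 in rods, Kcnj14 is high in rods, and Kcnd3 has cells over the line at P2 and in the knockout but none in adult controls.

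The third comparison asked what differs in Trb2Cre-KO cones, labelled as a knockout of the receptor's gene. Among the channel genes, Kcnab2 was lower in knockout than in control cones in both zones and against both adult control collections, and Cacna1h was higher than in 2m controls. Kcnd3, not found in any adult control cone, was found in 10 superior and 4 inferior knockout cones. There is 1 knockout collection, so genotype and collection cannot be told apart, and levels were compared by size with no test. A gene counted as higher or lower where mean CPM + 1 differed by at least 2-fold in the same direction in both zones, provided that the higher group had a mean of 10 CPM or more and that 25% or more of its cells exceeded 1 CPM. Against 2m controls 17 channel genes could meet this rule: 1 was higher, beside 2.2% of all genes, and 1 was lower, beside 2.1%. Against P60 controls 19 could: 0 were higher, beside 3.7%, and 3 were lower, beside 3.76%, among them Kcnab2 and Kcng4. With TMM scaling the same genes were called (all genes, 1.86% and 2.32% against 2m, 4.4% and 3.05% against P60). Both comparisons share the knockout cells. Against both, Kcnab2 alone was lower, beside 0.879%, and none was higher, beside 0.386%.

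Kcnab2, at chr4:152390744-152477549, overlaps another coding gene's interval, and its reads may include that gene's. In 2m controls, superior cones ran from 0 to 607 CPM with a median of 70.7, and inferior cones ran from 0 to 253 CPM with a median of 5.54. In the knockout, superior cones ran from 0 to 679 CPM with a median of 0.124, and inferior cones ran from 0 to 212 CPM with a median of 0.0617. The knockout medians were near 0 and that of superior controls was not. The inferior control median fell in the gap between a cell at 0.817 CPM and the next at 10.3 CPM, so it describes no typical cell. The cells of all 4 groups overlapped. Cells at 10 CPM were 43 of 53 and 25 of 50 in superior and inferior controls and 12 of 50 and 12 of 48 in the knockout, or 81.1% (exact Clopper-Pearson 95% interval 68.03% to 90.6%), 50% (35.5% to 64.5%), 24% (13.1% to 38.2%) and 25% (13.6% to 39.6%), by counting error only. The log2 ratios, knockout over 2m control, were -1.59 superior and -1.21 inferior, and over P60 control -2.23 and -3.09. In superior knockout cones 1 cell held 44.02% of the sum, and the mean was 30.9 CPM with and 17.6 CPM without it. The beta subunit gene Kcnab1 did not meet the rule, with 2m control means of 201 and 345 CPM and knockout means of 162 and 281 CPM, superior then inferior.

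Cacna1h ran from 0 to 236 CPM with a median of 0 in superior and from 0 to 577 CPM with a median of 0.0506 in inferior 2m controls. In the knockout it ran from 0 to 982 CPM with a median of 10.5 in superior and from 0 to 828 CPM with a median of 61.2 in inferior cones. The groups overlapped, and cells at 10 CPM were 4 of 53 and 12 of 50 in controls and 25 of 50 and 27 of 48 in the knockout. The log2 ratios over 2m controls were 3.46 and 1.61, and over P60 controls 1.33 and 0.54, superior then inferior, so the inferior ratio to P60 was under 2-fold. Knockout means of 116 and 127 CPM were close to those of P2 control cones, 149.8 and 138 CPM. This gene too overlaps a coding gene.

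Kcnd3 in knockout cones ran from 0 to 700.3 CPM with a median of 0 in superior and from 0 to 499 CPM with a median of 0 in inferior retina. It was at 10 CPM in 10 of 50 (20%, exact 95% interval 10.03% to 33.7%) and 4 of 48 cells (8.33%, 2.32% to 19.98%). Superior and inferior means were 43.2 and 22.9 CPM in the knockout and, in the 2m controls, 0.00307 and 0.0893 CPM, and the log2 ratios were 5.46 and 4.46. In superior cones this is the largest positive ratio of any channel gene, and in inferior cones only Ano10 had a larger one (5.27, from 4 of 48 knockout cells at 10 CPM, named after its values were seen). Too few cells held Kcnd3 for the 25% minimum, so it is not among the counts. In younger controls the superior means were 42.1, 6.3 and 33.6 CPM at P2, P8 and P21, and the inferior means 55.7, 13.8 and 0.0189 CPM. Median depth was 12135072 and 10923042 reads in superior and inferior knockout cones and 12568958 and 13578809 reads in those of 2m controls.

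Kcne2 in the knockout ran from 0.164 to 2733 CPM with a median of 733 in superior and from 0.233 to 2592 CPM with a median of 643 in inferior cones. The superior minus inferior difference was 0.088, opposite in sign to that of all 5 control collections, an order of signs found for 3 of the 37 channel genes (Ano1, Clcn4, Kcne2) and 1.03% of all genes. Ano1 was close to absent in the knockout, with highest cells of 0.15 and 0.0905 CPM, superior then inferior. For Kcne2 an exact two-sided permutation test of the knockout difference against the 5 control differences gave p = 0.333, and the smallest it allows is 0.167. The log2 ratios over 2m controls were 0.40 superior and -1.10 inferior. Opn1sw in the knockout was 71654 and 73742 CPM, and Opn1mw, the medium-wavelength opsin, was 6.63 and 1.47 CPM, where the 2m controls had 9599 and 3414 CPM. Set against inferior 2m controls, Opn1sw was higher in both knockout zones. Kcne2 was in both under its mean in those controls, 1611 CPM. The inferior controls of P60 had 72134 CPM of Opn1sw, which lies between the values of the knockout zones. Whether the opsins bear on the Kcne2 values was not tested.

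The 2 adult control collections also differed from each other. Of 18 channel genes that could meet the same 2-fold rule between P60 and 2m controls, 2 were higher at P60, beside 5% of all genes, with Kcng4 among them, and 0 lower, beside 5.06% (3.59% and 5.97% with TMM scaling). Kcng4, a modulatory Kv subunit, had means of 44.7 and 97.3 CPM at P60, 15.6 and 9.14 CPM at 2m and 6.18 and 11.9 CPM in the knockout. For Kcng4 the ratio of knockout to control therefore depends on which adult control collection is used, and for Kcnab2 it was over 2-fold with either.

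The synaptic calcium channel genes met the rule against neither control. Cacna1f had 2m control means of 136 and 133 CPM and knockout means of 160.01 and 259 CPM. Cacnb2 ran from 0 to 1341 CPM with a median of 77.9 in superior and from 0 to 1128 CPM with a median of 25.6 in inferior knockout cones, with log2 ratios over 2m controls of 0.28 and 0.92. Its inferior 2m control mean of 90.3 CPM held 48.5% from 1 cell and was 47.4 CPM without it. Kcnma1 differed between the zones, with 2m control means of 158 and 114 CPM and knockout means of 189 and 41.8 CPM, so only its inferior ratio was over 2-fold. The median log2 ratio of the 17 genes over 2m controls was 0.26 superior and -0.08 inferior, beside -0.011 and 0.063 over all genes that could meet the rule.

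**Figure D3:**
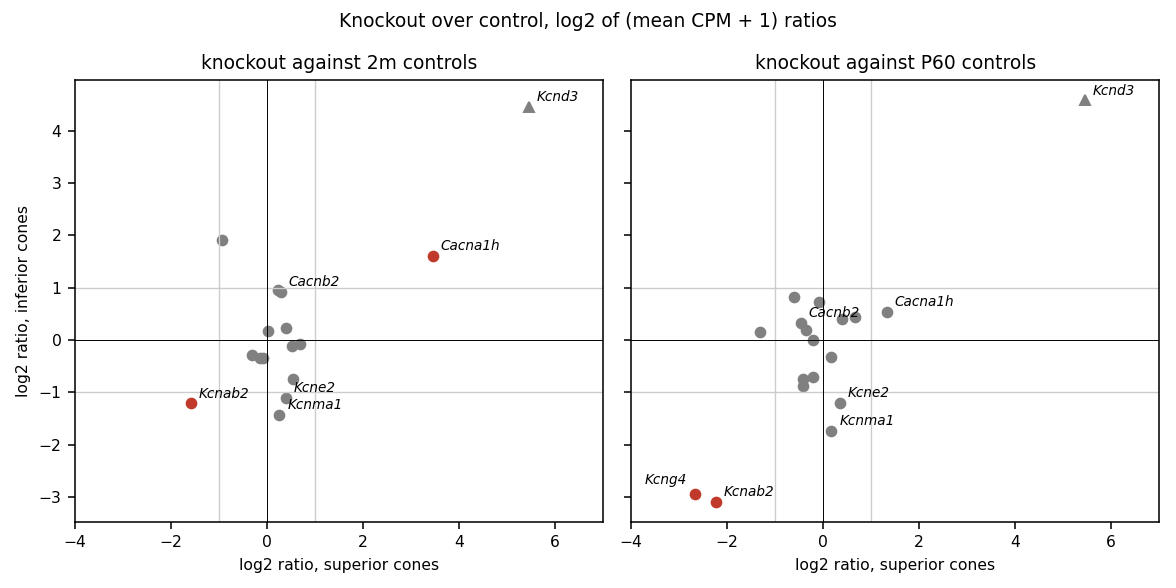
Log2 ratio of (mean CPM + 1), knockout over control, in superior (x) and inferior cones (y), for channel genes that could meet the rule, against 2m controls (left) and P60 controls (right). Red points met the 2-fold rule in both zones, grey lines mark 2-fold, and the triangle is Kcnd3, which lies under the rule's minimum of cells; Kcnab2 is red in both panels.

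The fourth comparison set rods against cones. Kcnj14, an inward rectifier, was the 1 channel gene higher in rods, and Kcne2, Kcnab1, Kcnh6, Kcnma1, Kcnab2 and Trpc4ap were lower. Rods are 1 group from another reporter line, so cell type and line cannot be told apart and no test was made. The rule here was a difference of at least 4-fold from both cone zones at 2m. Of 17 channel genes that could meet it, 1 was higher, beside 1.45% of all genes, and 6 were lower, beside 20.9%. The median log2 ratio of all genes, rods over superior and inferior cones, was -0.54 and -0.50 by CPM and 0.23 and 0.13 with TMM scaling, and values called relative below are CPM ratios less the first pair. The median over the 17 channel genes was -1.74 and -1.70. Against P60 cones 1 of 18 was higher, beside 2.87%, and 9 were lower, beside 25.4%, with Clcn3, Kcng4 and Trpm7 added. TMM scaling left 1 higher and 7 lower against P60, beside 6.27% and 19.3%, without Clcn3 and Trpm7.

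Kcnj14, at chr7:45816467-45824747, ran from 2.11 to 6123 CPM with a median of 1723 in rods, where 24 of 29 cells held it (82.8%, exact 95% interval 64.2% to 94.2%). In 2m control cones it ran from 0 to 178 CPM with a median of 0.109 in superior and from 0 to 443 CPM with a median of 0.113 in inferior retina, with 3 of 53 and 4 of 50 cells at 10 CPM. Rods were thus high and cones low, with overlap in a few cells. The log2 ratios were 7.59 and 6.15 over superior and inferior cones, or 8.13 and 6.65 relative to all genes. Cone means over the 10 control groups were from 0 to 39.7 CPM, highest in P60 inferior cones, where 3 of 21 cells held it, and knockout means were 10.8 and 17.5 CPM. The summed rod markers were 9687 CPM in P60 superior, 17985 CPM in P60 inferior, 14685 CPM in 2m superior and 20615 CPM in 2m inferior cones, and their part in the cone values of Kcnj14 was not tested.

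Kcne2 in rods ran from 0 to 0.27 CPM with a median of 0, with 24 of 29 cells at 0. No rod held it at 10 CPM, which allows a share of up to 10.3% by counting error only. The log2 ratios to superior and inferior 2m cones were -9.20 and -10.62, or -8.66 and -10.12 relative to all genes, on a scale with 1 CPM added that understates differences from a value near 0. Kcnab1 was near 0 in rods as well: 0 of 29 rods held it, with a highest cell of 0.134 CPM, against means of 201 and 345 CPM in 2m cones. Kcnh6 had a mean of 2.29 CPM in rods and 146 and 207 CPM in 2m cones, and Kcnma1 4.72 CPM and 158 and 114 CPM. All 4 were found in many cones and few or no rods.

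Trpc4ap and Kcnab2 were also lower in rods, with values that rest on single cells. The rod mean of Trpc4ap, 18.1 CPM, came 99.9% from 1 cell, and that of Kcnab2, 8.92 CPM, 84.2% from 1 cell. The log2 ratios of Kcnab2 were -3.27 and -2.15 by CPM and -2.56 and -1.57 with TMM scaling, under 4-fold in inferior cones. With TMM scaling, 2 channel genes were higher, beside 3.05% of all genes, and 5 lower, beside 16.4%.

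Several channel genes were found in both rods and cones. Cacnb2 ran from 0 to 1707 CPM with a median of 1.74 in rods, with 7 of 29 cells, and ratios of 0.32 and 1.11. Ano2 and Cacna2d4 had rod means of 176 and 139 CPM, against 147 and 232 and 123 and 148 CPM in superior and inferior 2m cones. Their ratios were all under 4-fold in each zone. Cacna1f had a rod mean of 40.03 CPM from 2 of 29 cells at 10 CPM. The Müller glia markers, 7 of 9 measured, summed to 2889 CPM in rods and 1017 and 1128 CPM in 2m cones, and their part in these ratios was not tested.

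**Figure D4:**
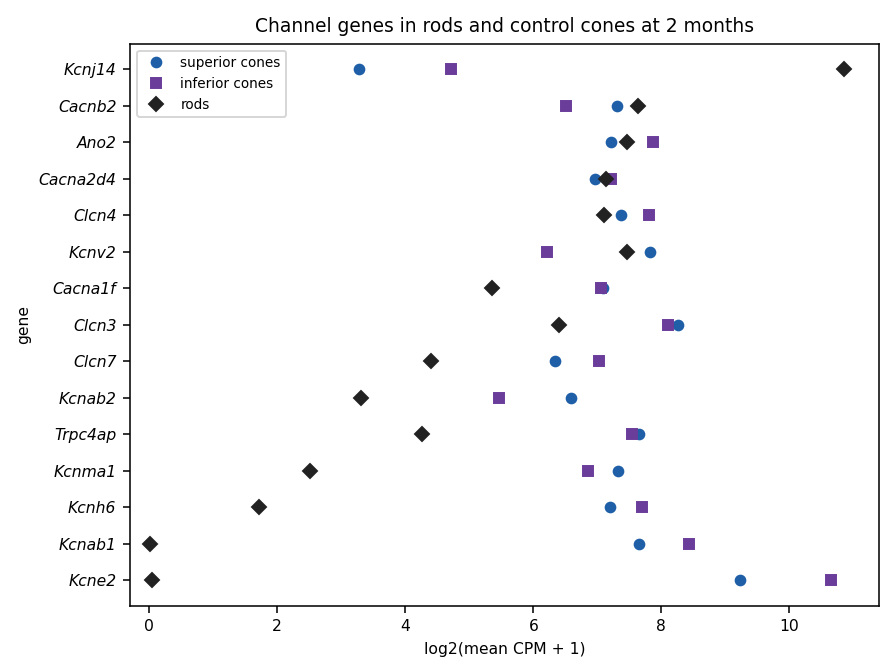
Mean level of 15 of the channel genes that could meet the rod rule, as log2(mean CPM + 1), in rods (black diamonds) and in superior (blue) and inferior (purple) 2m control cones. Kcnj14 has its rod value far to the right of both cone values, Kcne2, Kcnab1, Kcnh6 and Kcnma1 have theirs far to the left, and Ano2 and Cacna2d4 lie near their cone values.

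Genes that work with these channels, from 4 lists outside the symbol rule, were called for age in 3 cases and in rods in 9. All 3 age calls were rises, beside 1.37% of all tested genes. On summed reads edgeR called 0% of all genes as rising, so these 3 calls also depend on the method. Of 12 partners of the L-type channel and the ribbon, 9 were measured, and 1 rose with age by limma: Cabp4, a calcium-binding protein of that channel, with a slope of 0.87 (SE 0.16, adjusted p = 0.0137) and means of 12.4 and 6.71 CPM at P2 and 264 and 279 CPM at 2m. In rods 2 of the 7 that could meet the rule, Rims2 and Ctbp2, were lower, beside the 20.9% of all genes. Of 8 partners of A-type potassium and sodium channels, 4 were measured. Nedd4l, a ubiquitin ligase that acts on sodium channels, rose with age by limma (slope 0.66, SE 0.12, adjusted p = 0.0176). It was also lower in the knockout against both control collections, beside 0.879% of all genes. Its means were 47.9 and 35.9 CPM in the knockout against 131 and 125 CPM at 2m (log2 ratios -1.43 and -1.77).

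Of 19 ion pumps and exchangers 12 were measured, none was called for age, and Slc24a1, the sodium-calcium-potassium exchanger of rods, was higher in rods, at 1999.9 CPM against 11.3 and 21.9 CPM in 2m cones. Of the 7 that could meet the rod rule, 1 was thus higher, beside 1.45% of all genes. The 4 that were lower, beside 20.9%, were Slc24a2, the exchanger of cones, Atp1b2, Atp2a2 and Slc12a5. In the knockout Slc24a1 was higher than in 2m controls, at 49.2 and 86.5 CPM, beside 2.2% of all genes. Relative to P60 controls its log2 ratio was 4.12 in superior and -0.60 in inferior cones, so the inferior direction turned with the control collection. Atp1b2 was lower than in P60 controls, beside 3.76% of all genes. Of 21 other channel genes 11 were measured; Ttyh1, of the tweety family, rose with age by limma (slope 0.42, SE 0.10, adjusted p = 0.0444), and 2 of the 3 that could meet the rod rule, Ttyh2 and Lrrc8b, were lower in rods. None of the 4 lists had a gene called between zones.

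The last comparison placed the channel genes against 3 deposited region lists: 4590 regions bound by the receptor at E18, 5049 regions named as induced and 4072 named as suppressed, both from open chromatin of P30 cones. The names induced and suppressed are taken as deposited. A bound region lay in or within 50 kb of 27 of the 42 channel genes (64.3%), against 39% of the 10149 genes with coordinates. An induced region lay that near to 15 (35.7%, against 35.5%) and a suppressed region to 14 (33.3%, against 13.2%). Channel genes are long, with a median interval of 68 kb against 23.6 kb over all genes. Among genes with intervals of 28.3 to 173 kb, the shares near a bound region were 70% of 20 channel genes and 39% of all. Near an induced region they were 35% and 36.3%, and near a suppressed region 25% and 16.9%. A suppressed region overlapped the gene itself for 13 of the 42 channel genes, against 6.24% of all genes. Whether gene length accounts for any of these shares was not tested. The lists hold no values per sample, and no test was made.

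Kcne2 held 1 bound region inside the gene, at chr16:92295254-92295553, within an induced region at chr16:92295092-92295682. Kcnab2 held 2 bound regions and 9 of its 10 nearby induced regions inside the gene, with no overlap between the kinds and no suppressed region. Kcng4 had 2 bound and 3 induced regions, and the bound region at chr8:119628137-119628436 overlapped an induced region. Kcnab2 and Kcng4, lower in the knockout than in P60 controls, thus both had induced and no suppressed regions nearby, set side by side from different ages.

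Cacna1h, higher in the knockout than in 2m controls, had 2 bound and 3 suppressed regions and no induced one. Kcnd3 had the most bound regions of any channel gene, 8, of which 5 lay inside the gene, with 7 induced and 6 suppressed regions. Of these bound regions 3 overlapped an induced region, 1 inside the gene at chr3:105538832-105539131 and 2 outside it, at chr3:105695794-105696093 and chr3:105699126-105699425. Kcnj14 had 1 bound region 0.83 kb from the gene and 5 suppressed regions, 3 of them inside the gene, and Cacnb2 had 1 bound and 2 suppressed regions inside. Over all channel genes, 10 bound regions at 7 genes (Ano10, Kcnd3, Kcne2, Kcng4, Scn8a, Trpc4ap and Trpm3) overlapped an induced region, and 0 overlapped a suppressed one. Such overlaps were not counted over all genes, so these counts do not set channel genes apart from others.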

How the data were processed

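The deposited expression table gives CPM per gene and single-cell library, made by the authors. Per the submitters' processing notes, bcl2fastq 2, STAR 2.7.3a, MACS2 2.2.7.1 and the build GRCm38 (mm10) were used, and the counter, annotation and gene filter were not given in the sources used here. The deposited CPM values are whole multiples of what 1 read is worth (100% of values above 0, within 0.1 read), so reads and depth (897893 to 32636811 per library) were recovered from them. The genes of the table hold 80% to 93% of each library. A gene's lowest maximum over libraries was 34.4 CPM. P60 superior libraries 3 and 14 differed by far less than other pairs (r = 0.996 on the log2 scale, against at most 0.467) and were counted as 1 cell, which left 429 cells from 430 libraries. The receptor-bound list has a column of p-values or q-values, deposited by the authors (which of them is not given in the sources used here), and its regions are all 300 bases long; the open chromatin lists have a deposited column of region names only, and none of the 3 holds values per sample.

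Group means of CPM were taken over cells, 1 CPM was added and log2 taken. Zone and age were tested with limma 3.58.1 (trend, R 4.3.3) over all genes whose mean reached 5 CPM, with Benjamini-Hochberg adjustment and a threshold of 0.05. edgeR 4.0.16 and DESeq2 1.42.0 on reads summed per group were alternatives. The labels do not say that collections come from separate animals, so p-values measure only the spread between collections. TMM scaling of group means was another alternative. It moved the median log2 ratio of all genes from -0.10 to 0.071 (knockout over P60 control, superior), from 0.063 to -0.055 (knockout over 2m control, inferior) and from 0.11 and 0.10 to -0.037 and -0.040 (P60 over 2m control, superior and inferior). Comparisons of the knockout and of rods have 1 collection per side and used rules of size. Intervals on shares of cells cover counting error only, since reads carry no molecular identifiers. Thinning every cell to 897000 reads moved no share of cells by more than 4.76 percentage points. Gene coordinates came from RefSeq for GRCm38.p6 (42 of 42 matched by gene ID), with intervals that overlap another gene for 32 of the channel genes and a coding gene for 7. Reads of overlapping genes may not be separable, since the strand setting of the counting is not given in the sources used here. The planned search for promoter motifs was not run, and no sequence is printed. Scripts were tested on simulated data. The genes named with values are the 4 that gave the label (Kcne2, Kcnd3, Kcnj14, Cacnb2), the member of each class with the highest control mean (CPM, used only to choose names), each that met a test or size rule, and the 5 with the smallest zone p; counts cover all channel genes, but some genes are not reported here by name or value, nor drawn. The genes, lists and rules were chosen with earlier results of these data known.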

Additional observations from a re-analysis of the deposited data

Results flagged for a closer look

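Superior minus inferior differences of log2(mean CPM + 1) over the 5 control collections were screened for the genes chosen by the naming rule, not for all channel genes. Of these genes, 3 had a collection set far apart from the other 4. The screen was not run over all genes, so no share of all genes stands beside this count. They were Kcnd3 at P21 (5.09), Kcnk1 at P21 (4.84) and Kcnj3 at 2m (1.62). Chance gives such a gap in about 1 in 20 groups of normally distributed values, a rate that need not hold for means resting on few cells. Each value came from few cells: Kcnd3 was at 10 CPM in 3 of 24 superior and 0 of 24 inferior cones at P21, Kcnk1 in 1 of 24 and 0 of 24 at P21, and Kcnj3 in 3 of 53 and 2 of 50 at 2m.

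The knockout difference had the opposite sign to all 5 control collections for Kcne2 (0.088) and for Ano1 (0.00481). The Ano1 sign rests on values at the floor: its knockout means were 0.00523 and 0.00189 CPM, superior then inferior, with no cell over 1 CPM. For Kcne2 the exact permutation test gave p = 0.333, with 0.167 the smallest possible, and for Ano1 the difference was not tested. Clcn4 had the same order of signs, with a knockout difference of 0.32. Such an order was found in 1.03% of all genes.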

How the results depend on the processing

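No paired analysis was possible because the replicate numbers name single cells, and a number shared between groups marks no shared animal or day; the zone fit has the collection, not that number, as its block. For zone, the count of channel genes higher in inferior cones, 0, became 1 with averaged logs of single cells (Kcne2) and 2 with DESeq2 (Kcnj14, Ano1). Kcne2 kept a negative zone difference under all 14 alternatives, from -1.87 to -0.94. For age, the 2 rising genes became 1 with a pseudocount of 0.1 CPM, without a filter, with every library counted and in superior groups alone, 4 with averaged logs, and 0 in inferior groups alone, with P2 and P8 set against later collections and with edgeR. The 1 falling gene became 0 with a pseudocount of 0.1 CPM, TMM, P2 and P8 against later, either zone alone and edgeR, 4 with averaged logs and 2 with DESeq2. Leaving out 1 collection gave from 0 to 2 rising and from 0 to 1 falling. Without P2, slopes turned to -0.0796 for Kcne2 and -0.068 for Kcnab2, and over the collections left out in turn their highest slopes were 1.08 and 0.877. In the knockout against 2m, the 1 higher gene became 2 with averaged logs (all genes, 58), 6 without a filter (489) and 0 against P60, and the 1 lower became 4 without a filter (428) and 3 against P60. Between P60 and 2m, the 2 higher became 6 with averaged logs (494) and 4 without a filter (622), and 0 lower became 2 without a filter (735). In rods, the 1 higher became 4 without a filter (222) and 2 with TMM, and the 6 lower became 12 without a filter (3195). Channel genes near a bound region numbered 14, not 27, at a value of at most 0.001 in the deposited column of p or q values (33.3%, against 22.3% of all genes), and near an induced region 8, not 15, by overlap with the gene (19.05%, against 11.9%). Where the construction does not show it, the cause was not tested. Depth differs between collections (group medians of 1744578 to 3252559 reads up to P60, 10923042 to 18313296 at 2m), so low values before 2m are coarser.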

Other observations

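Some group means of sparse channel genes rest on 1 cell. Kcnk1 in P21 superior cones ran from 0 to 663 CPM with a median of 0, with 100% of its sum in 1 cell. Kcnc1, a fast potassium channel named here after its values were seen, was at 10 CPM in 5 of 50 superior and 2 of 48 inferior knockout cones, 0 of 53 and 0 of 50 2m control cones and 0 of 26 and 0 of 21 P60 control cones. Its knockout means were 27.7 and 7.23 CPM.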
